A study of Mus musculus with 4 samples.

Results

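*Il7*, *Il15*, *Il2rb* and *Il2rg* were 4 of the 84 target genes on a quantitative PCR panel of inflammatory cytokines and receptors. They were taken by gene symbol, as the lymphocyte survival cytokines and the receptor chains linked to them, and all 4 gave a threshold cycle (Ct) on every array. The panel was run on ischemic hindlimb muscle of male and female FVB mice aged 10 to 12 weeks. One group had received E-selectin/AAV2/2, an adeno-associated virus carrying the mouse gene for the endothelial adhesion molecule E-selectin, and the control group LacZ/AAV2/2, the same vector with a bacterial reporter gene. Virus was injected into thigh and calf muscle 4 and 2 days before surgery and on the day itself. Both groups underwent coagulation of the left femoral artery and vein and received injections of L-NAME at 40 mg/kg, which blocks nitric oxide synthase. The adductor and gastrocnemius muscles were collected at 21 days. Per the series text, RNA of 3 mice was pooled in each group and the array was run in duplicate, which gave 2 arrays for E-selectin/AAV2/2 and 2 for LacZ/AAV2/2. The study's methods also state duplicate runs, but give a range of mice per group and mention no pooling. The series text was followed here. On its reading every SD, SE, interval and p-value carries assay error only, and none measures the spread between animals.

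*Il7* and *Il15* encode secreted cytokines that keep lymphocytes alive. *Il7* is made mainly by stromal cells and maintains naive T cells, whereas *Il15* is made by myeloid and stromal cells and by skeletal muscle, and maintains natural killer cells and memory CD8 T cells. *Il2rb* encodes a signaling chain shared by the receptors for the *Il2* and *Il15* proteins, carried chiefly by natural killer cells and T cells. *Il2rg* encodes the common gamma chain, which pairs with *Il2rb* in those receptors and with the *Il7* receptor chain in the receptor for *Il7*, and is carried by lymphocytes and other leukocytes. The comparison asked how the tissue-made cytokines and the leukocyte-borne receptor chains stood in muscle given E-selectin/AAV2/2 relative to LacZ/AAV2/2.

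*Il2rb*, *Il7* and *Il2rg* lay higher in the E-selectin/AAV2/2 pool and *Il15* lay lower, yet none of the 4 differences passed the test. The log2 fold changes were 2.23 for *Il2rb*, 1.73 for *Il7*, 1.43 for *Il2rg* and -1.39 for *Il15*. *Il15* therefore parted from the other 3 genes, and its ratio to each of them on the same array separated the groups without any reference gene, as did that of 55.3% of the other 76 tested genes in the same direction. Because muscle was homogenized whole, fewer cells of a type and less RNA per cell cannot be told apart.

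A Ct is the PCR cycle at which fluorescence crosses a set level, so that abundant transcripts have a low Ct and a delay of 1 cycle stands for a 2-fold difference at full efficiency. An array read 46 to 65 of the 84 target genes before cycle 35, and the median Ct of the 77 target genes read on all 4 arrays was 31.92 to 34.07. LacZ/AAV2/2 replicate 1 stood apart, with the fewest genes under 35 and the latest median. The well for mouse genomic DNA gave a Ct of 36.1 to 39.3, and the 3 positive PCR control wells averaged 21.0 to 21.2. The 3 reverse transcription control wells averaged 23.1 to 23.6 on the other arrays and 24.7 on LacZ/AAV2/2 replicate 2. No gene particular to muscle fibers was among those analysed here, so the labelled tissue could not be checked against its markers. Levels below are -ΔCt, in which the Ct of the gene is subtracted from the average of 5 reference genes (*Gapdh*, *Actb*, *Hsp90ab1*, *B2m* and *Gusb*), on the log2 scale. A less negative value means more transcript. Assays differ in efficiency, so levels were compared between arrays for a gene and not between genes. The exception is the summed levels of gene lists, in which the share of each gene carries that limit.

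*Il7*, the stromal T cell survival cytokine, was read late. In replicate order, its Ct was 33.49 and 33.59 with E-selectin/AAV2/2 compared to 36.31 and 35.33 with LacZ/AAV2/2. After normalization its -ΔCt was -9.15 and -9.75 with E-selectin/AAV2/2 and -11.06 and -11.31 with LacZ/AAV2/2. The E-selectin/AAV2/2 arrays were thus both above the LacZ/AAV2/2 arrays, and the nearest arrays of the groups were 1.31 apart, more than the 0.60 and 0.24 between repeat arrays. Of the 4 genes *Il7* had the widest gap and the only one that exceeded the difference between repeat arrays in both groups. The mean level was -9.45 ± 0.42 (SD, n = 2) against -11.18 ± 0.17 (SD, n = 2). The log2 fold change was 1.73 (SE 0.95, 95% interval -0.31 to 3.78, limma adjusted p = 0.396), or 3.32-fold. Both LacZ/AAV2/2 readings were past Ct 35, and with later values set to 35 the change was 0.91 on the log2 scale.

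*Il15*, the survival cytokine also made by muscle fibers, was read well before the late cycles. Its Ct was 29.40 and 30.06 with E-selectin/AAV2/2 compared to 29.68 and 28.09 with LacZ/AAV2/2, in replicate order, and these raw values overlapped. The -ΔCt was -5.06 and -6.22 with E-selectin/AAV2/2 and -4.43 and -4.07 with LacZ/AAV2/2. After normalization both E-selectin/AAV2/2 arrays lay below both LacZ/AAV2/2 arrays, the reverse of *Il7*, with 0.63 between the nearest arrays and 1.16 between the E-selectin/AAV2/2 repeats. The mean level was -5.64 ± 0.82 (SD, n = 2) against -4.25 ± 0.26 (SD, n = 2). The log2 fold change was -1.39 (SE 0.97, 95% interval -3.48 to 0.70, limma adjusted p = 0.507), which put LacZ/AAV2/2 2.63-fold above E-selectin/AAV2/2. Without E-selectin/AAV2/2 replicate 2 the log2 change was -0.82.

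*Il2rb*, the receptor chain of natural killer and T cells, had the largest difference of the 4 genes and the poorest agreement between repeats. Its Ct was 32.36 and 34.80 with E-selectin/AAV2/2 compared to 36.43 and 36.29 with LacZ/AAV2/2. The -ΔCt was -8.02 and -10.96 with E-selectin/AAV2/2 and -11.18 and -12.27 with LacZ/AAV2/2. The groups did not overlap, but E-selectin/AAV2/2 replicate 2 lay only 0.22 above LacZ/AAV2/2 replicate 1, whereas the E-selectin/AAV2/2 repeats were 2.94 apart. The mean level was -9.49 ± 2.08 (SD, n = 2) against -11.72 ± 0.77 (SD, n = 2). The log2 fold change was 2.23 (SE 1.12, 95% interval -0.18 to 4.64, limma adjusted p = 0.366), or 4.70-fold. Its size followed the E-selectin/AAV2/2 arrays: it was 0.76 on the log2 scale without replicate 1 of that group and 3.70 without replicate 2. With values past Ct 35, which included both LacZ/AAV2/2 readings, set to 35, it was 0.87 and the groups overlapped.

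*Il2rg*, the common gamma chain, was read at a Ct of 27.71 and 28.83 with E-selectin/AAV2/2 compared to 30.85 and 29.65 with LacZ/AAV2/2. The -ΔCt was -3.37 and -4.99 with E-selectin/AAV2/2 and -5.60 and -5.63 with LacZ/AAV2/2. The pair of E-selectin/AAV2/2 arrays was above the pair of LacZ/AAV2/2 arrays, and the LacZ/AAV2/2 repeats were 0.024 apart against 1.62 for the E-selectin/AAV2/2 repeats. The gap between the nearest arrays was 0.61. The mean level was -4.18 ± 1.14 (SD, n = 2) against -5.61 ± 0.017 (SD, n = 2). The log2 fold change was 1.43 (SE 0.99, 95% interval -0.70 to 3.57, limma adjusted p = 0.507), or 2.70-fold. It was 0.62 without E-selectin/AAV2/2 replicate 1 and 2.24 without replicate 2.

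**Figure D1:**
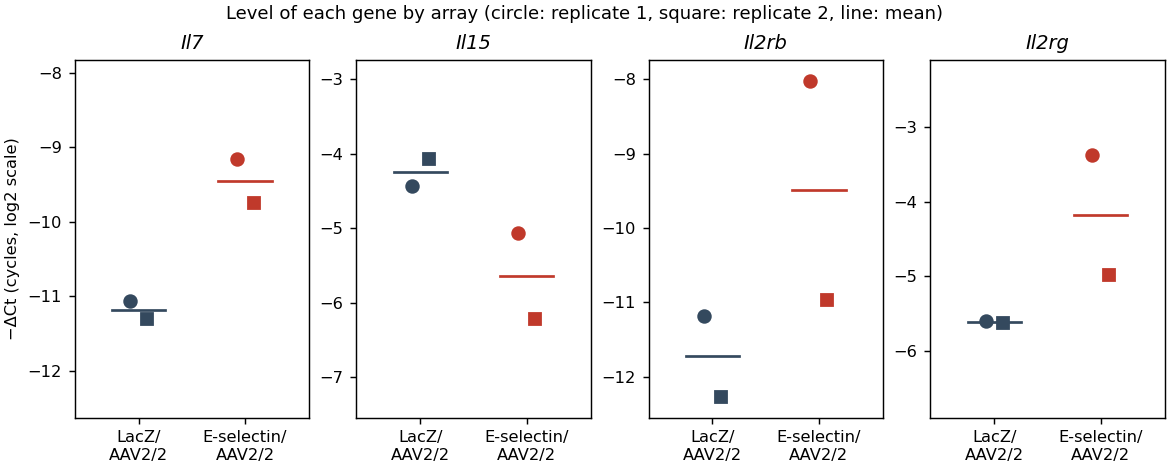
Level of *Il7*, *Il15*, *Il2rb* and *Il2rg* (vertical axis, -ΔCt in cycles, each panel spanning the same number of cycles) on the 2 LacZ/AAV2/2 arrays and the 2 E-selectin/AAV2/2 arrays, with circles for replicate 1, squares for replicate 2 and lines for group means. *Il15* was lower on both E-selectin/AAV2/2 arrays and the other 3 genes were higher, with the widest spread between repeats for *Il2rb*, at 2.94 cycles.

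All 4 genes read lower on E-selectin/AAV2/2 replicate 2 than on replicate 1 after normalization, by 0.60 for *Il7*, 1.16 for *Il15*, 1.62 for *Il2rg* and 2.94 for *Il2rb*. The LacZ/AAV2/2 repeats differed less for each gene, by 0.024 to 1.08. For the receptor chains the order of the 4 arrays was thus E-selectin/AAV2/2 replicate 1 at the top, and the next array down lay close to the LacZ/AAV2/2 arrays. For *Il15* the order ran the other way between groups, with LacZ/AAV2/2 replicate 2 at the top.

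Called genes were those with an adjusted p-value under 0.05. None of the 4 genes was called, and none had an unadjusted p-value under 0.05 (limma, the lowest being 0.0666 for *Il2rb*). Across the 77 tested genes 5.19% were called higher and 0 were called lower by limma, while 9.09% were higher and 3.9% lower at an unadjusted p-value under 0.05. *Il7*, *Il2rb* and *Il2rg*, 3 of the 4 genes, had groups that did not overlap in the higher direction, against 22.1% of the panel, and *Il15* in the lower direction, against 26.0%. In either direction the groups failed to overlap for 48.1% of the panel, so a lack of overlap was common on these arrays. Ranked by fold change, *Il2rb* stood 8th, *Il7* 13th and *Il2rg* 14th from the highest of the 77 genes, and *Il15* stood 13th from the lowest. The 4 genes had a median log2 fold change of 1.58 and the 77 genes one of -0.19. With 2 arrays against 2 there are 6 ways to assign the labels, so that an exact two-sided permutation test of any single value cannot give a p-value below 2 in 6.

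**Figure D2:**
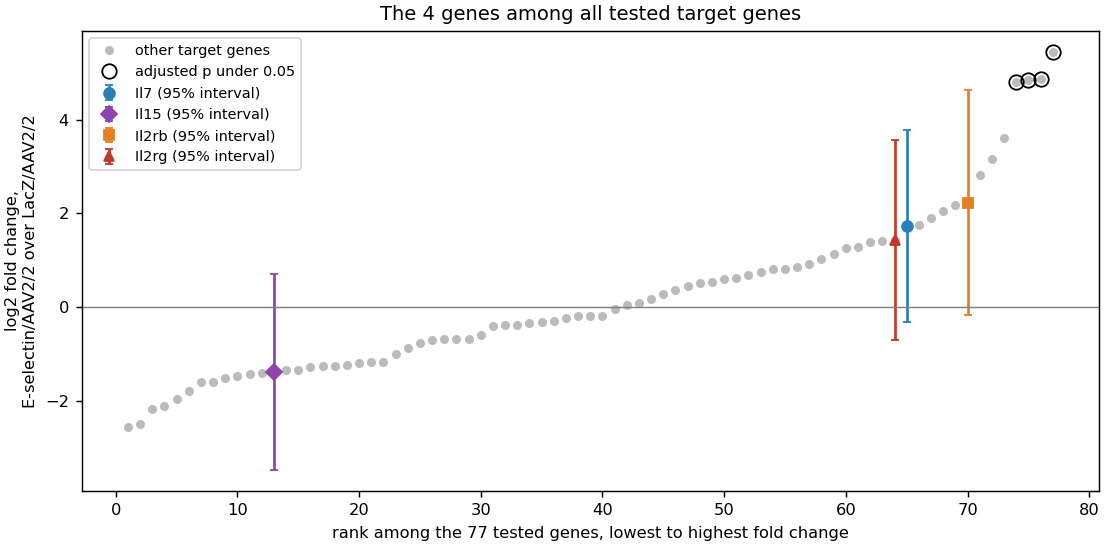
Log2 fold change of E-selectin/AAV2/2 over LacZ/AAV2/2 (vertical axis) for the 77 tested genes in rank order (horizontal axis), with 95% limma intervals for the 4 genes in color and rings around genes with an adjusted p-value under 0.05. The intervals of *Il7*, *Il15*, *Il2rb* and *Il2rg* all included 0, and none of the 4 carried a ring.

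Each fold change depends on the reference genes, which did not move together. *B2m*, the light chain of class I molecules, was read at 22.55 and 21.09 with E-selectin/AAV2/2 against 24.68 and 22.94 with LacZ/AAV2/2, whereas *Gapdh* had 20.07 and 20.36 against 19.95 and 19.35. With *Gapdh* as the only reference the log2 fold changes were 3.35 for *Il2rb*, 2.85 for *Il7*, 2.55 for *Il2rg* and -0.28 for *Il15*, and the panel median was 0.92. With *B2m* as the only reference they were 0.79, 0.29, -0.01 and -2.84 in the same order, and the panel median was -1.64. *Il15* stayed below 0 and *Il7* and *Il2rb* above 0 under every reference tried, whereas *Il2rg* reached -0.01 with *B2m* alone. The separation of the groups held less well than the sign. For *Il15* the groups overlapped with *Gapdh* alone, *Gusb* alone and no reference. For *Il7*, *Il2rb* and *Il2rg* they overlapped with *B2m* alone, and for *Il2rb* also when *Gapdh* was left out of the reference genes. No fit with another reference called any of the 4 genes. The lowest adjusted p-value among all fits was 0.0929, for *Il2rb* with *Gapdh* alone (limma).

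**Figure D3:**
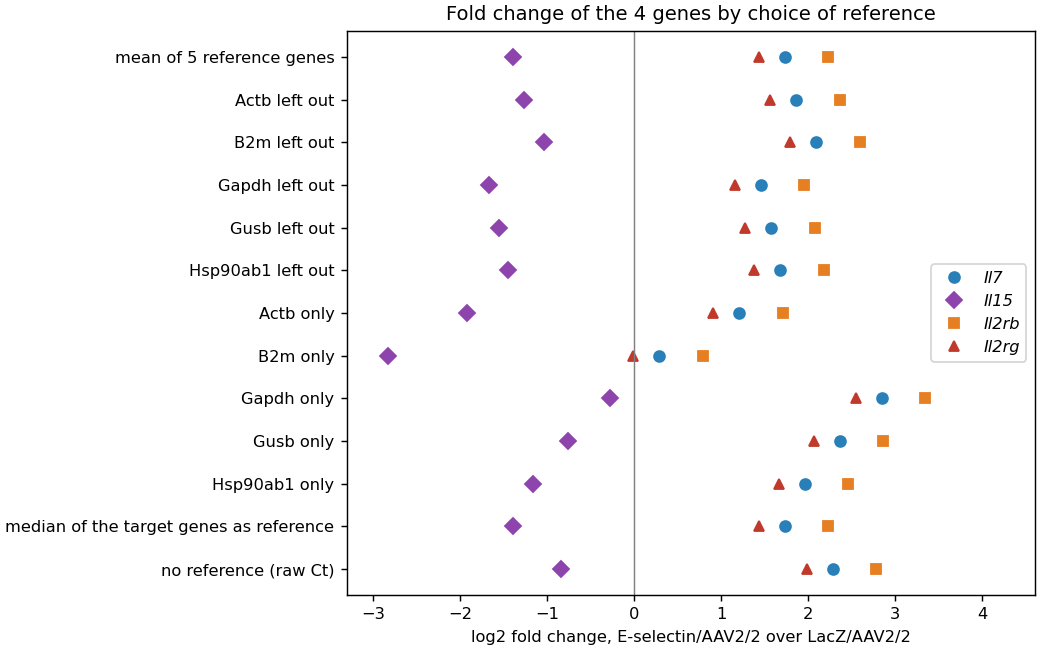
Log2 fold change of E-selectin/AAV2/2 over LacZ/AAV2/2 (horizontal axis) for *Il7*, *Il15*, *Il2rb* and *Il2rg* under each choice of reference (vertical axis). The 4 points shift together from row to row, from -2.84 for *Il15* with *B2m* alone to 3.35 for *Il2rb* with *Gapdh* alone, while their distances stay fixed.

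The ratio of a pair of genes on the same array needs no reference. *Il15* was set against the other 3 genes in this way. The log2 ratio of *Il7* over *Il15* was -4.09 and -3.53 with E-selectin/AAV2/2 compared to -6.63 and -7.24 with LacZ/AAV2/2. The balance of the survival cytokines thus lay 3.13 further toward *Il7* with E-selectin/AAV2/2, against a pooled SD of 0.41 between repeats, and the nearest arrays of the groups were 2.54 apart. It stayed between 2.82 and 3.43 when any single array was left out, and was 2.31 with late Ct values set to 35.

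The log2 ratio of *Il2rg* over *Il15* was 1.69 and 1.23 with E-selectin/AAV2/2 compared to -1.17 and -1.56 with LacZ/AAV2/2. Both genes were read before Ct 31 on all arrays, and the difference of 2.83 between the groups stood against a pooled SD of 0.30. The difference stayed between 2.60 and 3.06 when any single array was left out. The log2 ratio of *Il2rb* over *Il15* was -2.96 and -4.74 against -6.75 and -8.20, a difference of 3.63 with a pooled SD of 1.15. It ran from 2.74 to 4.52 when any single array was left out, and was 2.27 with late Ct values set to 35.

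A wider ratio to *Il15* with E-selectin/AAV2/2 was not confined to these genes. Beside the 55.3% of genes with a higher ratio to *Il15*, 2.63% of the 76 had a lower one without overlap, and the median difference was 1.20 on the log2 scale. *Il2rb*, *Il7* and *Il2rg* ranked 8th, 13th and 14th of those 76 genes. These ranks repeat those by fold change, because the ratio to *Il15* shifts the fold change of every gene by the same amount. The spread between repeats was smallest for *Il2rg* over *Il15* and for *Il7* over *Il15* among the 3 ratios to *Il15*.

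The ratios among the other 3 genes overlapped between the groups when all 4 arrays were used. *Il2rg* over *Il7* was 5.78 and 4.76 with E-selectin/AAV2/2 and 5.46 and 5.68 with LacZ/AAV2/2, a difference of -0.30 with a pooled SD of 0.52. *Il2rb* over *Il7* was 1.13 and -1.21 against -0.12 and -0.96, a difference of 0.50 with a pooled SD of 1.24. *Il2rb* over *Il2rg* was -4.65 and -5.97 against -5.58 and -6.64, a difference of 0.80 with a pooled SD of 0.85. These ratios depended on single arrays. Without E-selectin/AAV2/2 replicate 1 the differences were -0.81 for *Il2rg* over *Il7*, -0.67 for *Il2rb* over *Il7* and 0.14 for *Il2rb* over *Il2rg*. Without replicate 2 of that group they were 0.21, 1.67 and 1.46. The groups no longer overlapped in any of these but the 0.14. Without LacZ/AAV2/2 replicate 1 *Il2rb* over *Il2rg* differed by 1.33, again with no overlap. In the other ratios the groups overlapped when a LacZ/AAV2/2 array was left out. With late Ct values set to 35 the differences were 0.52, -0.04 and -0.56 in the same order, and the groups overlapped. With all arrays the differences were within the pooled SD between repeats, which does not show that the 3 genes changed by the same amount.

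**Figure D4:**
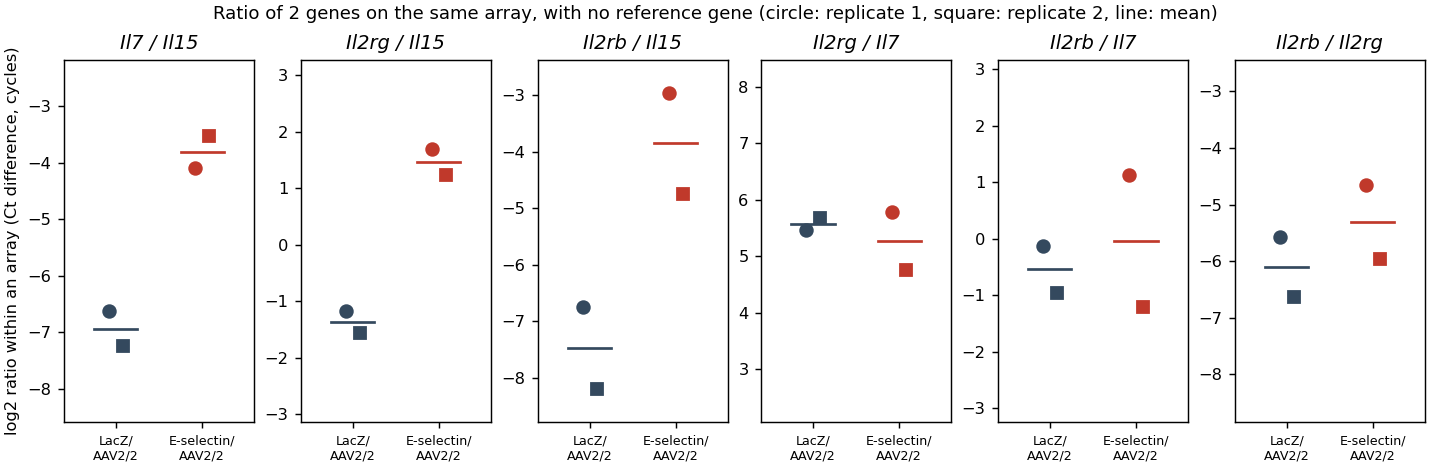
Log2 ratio of a pair of genes on the same array (vertical axis, Ct difference in cycles, each panel spanning the same number of cycles) on the LacZ/AAV2/2 and E-selectin/AAV2/2 arrays, with circles for replicate 1, squares for replicate 2 and lines for group means. The 3 ratios to *Il15* separate the groups by 2.83 to 3.63 between means, whereas the other 3 ratios overlap.

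Averaged by role, the receptor chains over the cytokines gave a log2 ratio of 1.41 and 0.01 with E-selectin/AAV2/2 compared to -0.65 and -1.26 with LacZ/AAV2/2. The difference of 1.66 exceeded the pooled SD of 0.76, and the groups did not overlap. That average joined cytokines that went opposite ways. Against *Il15* alone the receptor chains differed by 3.63 and 2.83, and against *Il7* alone by 0.50 and -0.30, for *Il2rb* and *Il2rg* respectively. In these untested values the split thus ran between *Il15* and the other 3 genes rather than between cytokines and receptor chains.

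The panel held 2 other ligands of receptors that hold the common gamma chain, *Il4* and *Il21*. *Il4*, a T helper cytokine, had a -ΔCt of -9.99 and -9.24 with E-selectin/AAV2/2 and -10.16 and -9.99 with LacZ/AAV2/2, and the groups overlapped. Its log2 fold change was 0.46 (limma SE 0.95, adjusted p = 0.807). *Il21*, a cytokine of follicular helper T cells, gave a Ct on 1 array, at 39.86 on E-selectin/AAV2/2 replicate 1, and was not tested.

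The nearest patterns on the panel were sought as the smallest root mean square difference in -ΔCt, centered on each gene's own mean, over the 4 arrays. *Il7* was nearest to *Il2rg* (0.40) and to *Il1a*, an interleukin 1 family alarmin (0.43), with a median of 1.27 over all genes. *Il2rg* was nearest to *Ccr4*, a chemokine receptor of T cells (0.35), and then to *Il7* (0.40), with a median of 1.31. *Il2rb* was nearest to *Il2rg* (0.72) and *Il7* (0.91), with a median of 1.87, so that its closest genes were both members. The reverse did not hold, as *Il2rb* ranked only 9th nearest to *Il2rg* and 18th nearest to *Il7*. *Il15* was nearest to *Il6st*, the gp130 receptor chain found on most cells (0.20), and to *Ccl4*, a chemokine of myeloid and T cells (0.26), with a median of 1.04. The likeness covers 4 arrays of 2 pools that share 1 set of reference genes, and is given as a description.

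*Il6st* had a -ΔCt of -6.85 and -8.32 with E-selectin/AAV2/2 and -6.37 and -6.40 with LacZ/AAV2/2, with a log2 fold change of -1.20 (limma SE 0.98, adjusted p = 0.507). Its order of arrays matched that of *Il15* between the groups, with both E-selectin/AAV2/2 arrays lower. *Ccr4* had a -ΔCt of -8.64 and -10.13 against -11.24 and -10.30, and a log2 fold change of 1.38 (limma SE 1.00, adjusted p = 0.507).

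Lists of genes carried by other cells of the muscle were set beside the 4 genes. Of 16 genes carried mainly by lymphocytes, 13 were tested, 11 lay above 0 and 2 below, and the median log2 fold change was 0.81, which turned to -0.63 with *B2m* as the only reference. Across the panel 36 of the 77 tested genes lay above 0 and 41 below. The groups did not overlap for 5 of the 13 lymphocyte genes in the higher direction and 2 in the lower, against 22.1% and 26.0% of the panel. *Ccr6* and *Cxcr5*, chemokine receptors of B cells and T cell subsets, were called higher, with log2 fold changes of 4.84 (limma adjusted p = 0.00624) and 5.45 (limma adjusted p = 0.00624). Neither was called with *B2m* alone or without either E-selectin/AAV2/2 array, where limma called 0 genes of the panel. The summed level of the list, 2 to the power of -ΔCt, was 0.166 and 0.120 with E-selectin/AAV2/2 compared to 0.0213 and 0.0250 with LacZ/AAV2/2. That sum was carried by *Ccr6*, *Cxcr5* and *Ltb*, a lymphotoxin of lymphocytes, which made up 0.147 and 0.102 of it with E-selectin/AAV2/2. The other 13 genes summed to 0.0190 and 0.0181 against 0.0110 and 0.0199, which overlapped, as did the groups of 6 of the 10 of them that were tested. Besides *Ccr6*, the genes of the list with the lowest mean Ct were *Ltb* at a log2 fold change of 3.62 (limma adjusted p = 0.0704), *Cxcr3*, a receptor of activated T cells, at 0.75 (limma adjusted p = 0.716) and *Il17f*, a cytokine of helper T cells, at -0.68 (limma adjusted p = 0.716). *Il2rb* and *Il2rg* lay on the same side of 0 as 11 of the 13 tested genes, and the part of lymphocyte number in their values was not tested.

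Of 10 genes of stroma and vessels, 9 were tested and all 9 lay below 0, against 41 of the 77 genes of the panel. Their median was -1.18. The groups did not overlap for 5 of them, each in the lower direction, against 26.0% of the panel, and none was called by limma. The summed level was 0.440 and 0.207 with E-selectin/AAV2/2 and 0.504 and 0.651 with LacZ/AAV2/2. The 4 genes with the lowest mean Ct were *Cxcl12*, a stromal chemokine, *Vegfa*, the vascular growth factor, *Il1r1*, the receptor for interleukin 1, and *Csf1*, the macrophage growth factor. Their log2 fold changes were -1.18, -0.35, -0.29 and -1.96 in that order (limma adjusted p = 0.507, 0.847, 0.873 and 0.366), and the groups overlapped for *Vegfa* and *Il1r1*. *Cxcl12* and *Vegfa* had the highest -ΔCt of the list on every array and so weighed most in the summed level. *Il15* lay on the same side as this list and *Il7*, also a stromal cytokine, on the other. With *Gapdh* as the only reference the median of the list was -0.07, and with *B2m* alone it was -2.62. The part of stromal cell number in the values of *Il7* and *Il15* was not tested.

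All 12 myeloid genes were tested, of which 8 lay below 0 and 4 above, with a median of -1.02 that was 0.09 with *Gapdh* alone. The groups did not overlap for 6 in the lower direction and 1 in the higher, against 26.0% and 22.1% of the panel. The summed level was 0.347 and 0.561 with E-selectin/AAV2/2 and 0.463 and 2.71 with LacZ/AAV2/2, so that the groups overlapped. The 4 genes with the lowest mean Ct were the chemokine genes *Ccl6*, *Pf4* and *Ccl9* and the monocyte receptor gene *Ccr2*, with log2 fold changes of -1.43, -0.20, -1.25 and -1.52 in that order (limma adjusted p = 0.507, 0.899, 0.507 and 0.507). The groups overlapped for *Ccl6*. That gene had the highest -ΔCt of the list on every array, 1.32 on LacZ/AAV2/2 replicate 2, and so weighed most in the summed level. Myeloid cells also carry *Il2rg* and make *Il15*, and their part in those values was not tested.

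Among the 6 other interleukin receptor chains, 5 lay below 0 and 1 above, with a median of -0.89 that was 0.23 with *Gapdh* alone. The groups did not overlap for 1 of them, *Il6st*, against 48.1% of the panel in either direction, and none was called by limma. Besides *Il6st*, those with the lowest mean Ct were *Il1r1* at a log2 fold change of -0.29, *Il10rb*, a widely expressed chain of the *Il10* receptor, at -0.78 and *Il10ra*, its leukocyte chain, at -1.35 (limma adjusted p = 0.873, 0.716 and 0.507). *Il2rb* and *Il2rg*, at 2.23 and 1.43, thus lay above all 6, whose log2 fold changes ran from -1.35 to 0.37. Among the 14 other interleukins, 10 were tested, 5 lay above 0 and 5 below, and the median was 0.06, with 1.17 under *Gapdh* alone and -1.38 under *B2m* alone. *Il7* at 1.73 was next to *Il1a* at 1.74, the highest of that list, while *Il33*, *Il17f* and *Il4*, the others with the lowest mean Ct, were at -0.24, -0.68 and 0.46. In the lower direction *Il15* at -1.39 was passed only by *Il5* at -2.18 (limma adjusted p = 0.299).

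**Figure D5:**
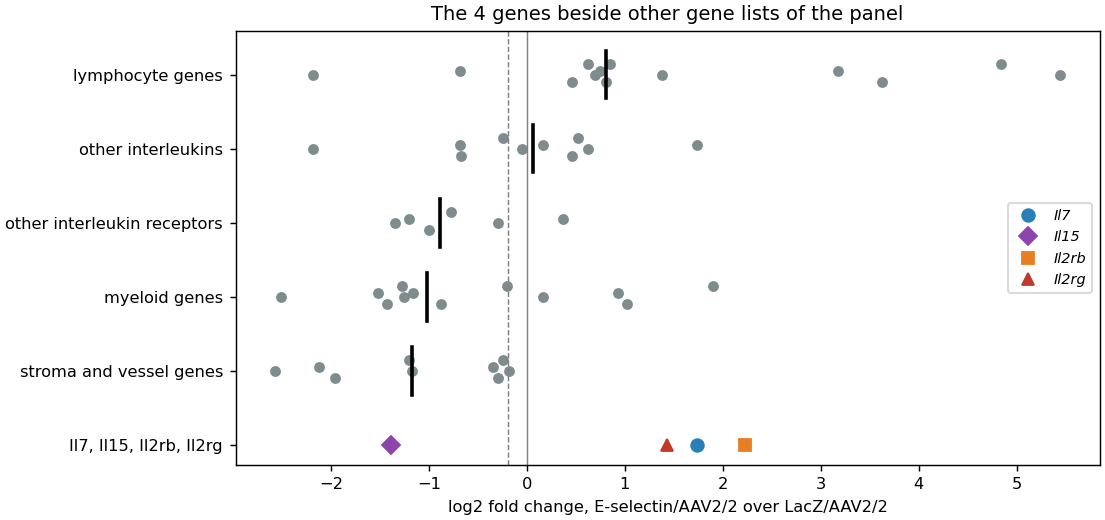
Log2 fold change of E-selectin/AAV2/2 over LacZ/AAV2/2 (horizontal axis) for each tested gene of 5 gene lists (gray points, black bars for list medians, some genes being in more than 1 list) and for *Il7*, *Il15*, *Il2rb* and *Il2rg* (bottom row), with a dashed line at the median of all 77 tested genes, -0.19. *Il15* falls within the range of the stroma and vessel genes, which run from -2.57 to -0.19. It also falls within the ranges of the lymphocyte genes, the myeloid genes and the other interleukins. The other 3 genes fall to the right of every list median, of which the lymphocyte one, 0.81, is the highest.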

How the data were processed

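The authors deposited 1 table of Ct values per well, not normalized, from Qiagen RT2 Profiler arrays, in which null marks an empty well, and a second table with gene symbols by well. Their 2 columns of fold ratios in the second table are their own comparison and were not used. Baseline and threshold settings are not given in the sources used here. RNA extraction is RNeasy with DNase I per the labels and TRIzol in the methods. All 4 symbols matched the RefSeq gene table of GRCm38.p6, and coordinates are omitted because the files name no build. Following the study's methods, Ct was normalized to the mean of 5 reference genes and -ΔCt was fitted in limma 3.58.1 in R 4.3.3 (two-sided eBayes test without covariates), with Benjamini-Hochberg adjustment over the 77 of 84 target genes read on all 4 arrays. Genes at an adjusted p-value under 0.05 were called. Full PCR efficiency was assumed and late Ct values were kept. The script was tested on simulated data. Ratios between genes are Ct differences within an array. The 4 genes, the gene lists and the tests were chosen with earlier results of these data known. Named beside the 4 genes were, per list, the tested genes with the lowest mean Ct (up to 4), the 2 nearest patterns, and called genes. The ratio background, *Il5*, *Cxcr5* and the sum without *Ltb*, *Ccr6* and *Cxcr5* were added after their values were seen. Other settings changed the reference, late or empty wells, arrays, block, variance trend and genes fitted. Figures were drawn with matplotlib 3.10.9.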

Additional observations from a re-analysis of the deposited data

Results flagged for a closer look

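*Ccr8*, a chemokine receptor of T cells in the lymphocyte list, was not tested, its well on LacZ/AAV2/2 replicate 1 being empty. It was picked out by a search for higher levels with E-selectin/AAV2/2 only, so its direction was set by the search and is no result. After normalization the nearest arrays of the groups were 1.09 apart on the log2 scale, with LacZ/AAV2/2 replicate 2 the lower. All of these wells were read late, at a Ct of 35.44 and 34.94 with E-selectin/AAV2/2 and 36.22 on LacZ/AAV2/2 replicate 2. The comparison rests on a single LacZ/AAV2/2 well. Groups of 2 arrays are too small for a formal rule on outlying samples.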

How the results depend on the processing

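None of the 4 genes was called in any fit tried: the adjusted p-value ran from 0.163 to 0.877 for *Il7*, 0.122 to 0.960 for *Il15*, 0.0929 to 0.848 for *Il2rb* and 0.254 to 0.994 for *Il2rg* (limma). The log2 fold changes of *Il7*, *Il15* and *Il2rb* kept their sign in every setting that tested them, though the groups overlapped in some. That of *Il2rg* turned only with *B2m* as the only reference, at -0.01. Leaving out each array in turn gave log2 fold changes of 1.43 to 2.03 for *Il7*, -1.97 to -0.82 for *Il15*, 0.76 to 3.70 for *Il2rb* and 0.62 to 2.24 for *Il2rg*. A group left with 1 array is assumed there to vary like the other. The average of receptor chains over cytokines ran from 0.96 to 2.36 over the same settings, and by single pair it was 3.63 (*Il2rb* over *Il15*), 2.83 (*Il2rg* over *Il15*), 0.50 (*Il2rb* over *Il7*) and -0.30 (*Il2rg* over *Il7*). Across the panel 4 genes were called, 7 with *Gapdh* or *Gusb* alone and 0 with *B2m* alone, where 26 had an unadjusted p-value under 0.05 in limma. Leaving out single arrays gave 0 to 6 calls, 0 without either E-selectin/AAV2/2 array, where the numbers at an unadjusted p-value under 0.05 were 8 without replicate 1 and 7 without replicate 2. The filter for a Ct under 35 removed *Il7* and *Il2rb*, so that neither has a value there. The labels give no batch behind the replicate numbers, and the deviations of same-numbered arrays correlated at r = 0.33 over 77 genes, and genes are no independent replicates. Under the replicate block the count was 5 genes and the 4 genes stayed uncalled, with adjusted p-values of 0.444 for *Il7*, 0.522 for *Il15*, 0.288 for *Il2rb* and 0.522 for *Il2rg*. The blocked fold changes equalled the unblocked ones, at 1.73, -1.39, 2.23 and 1.43 in that order. That equality was fixed in advance, because each replicate number holds 1 array of each group. The cause of the differences between settings was not tested. Depth cannot be counted from Ct values, and *Il7* and *Il2rb* were read past Ct 35 on both LacZ/AAV2/2 arrays, where few templates enter a well.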
